A study of Mus musculus with 14 samples.

Results

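The genes examined here are 9 genes through which myeloid cells are known to restrain T cells: Arg1, Nos2, Ido1, Entpd1, Nt5e, Tgfb1, Il10, Cd274 and Pdcd1lg2. Every probe set that the platform annotation gives to one of these symbols was taken, which gave 14 of the 45101 probe sets on the array. Probe sets were taken by name and not by measured value, but the genes were chosen with earlier results of these data known. The arrays measured total RNA of whole lung from BALB/c mice at the time of an early mammary tumour. Mice of the first group received 4T1 cells in the fourth mammary fat pad and gave 4 lungs, called 4T1 lungs below. Those of the second received 67NR cells at the same site and gave 5 lungs, called 67NR lungs. The last group received PBS without cells and gave 5 normal lungs. Tissue was collected on day 6, or once a tumour measured roughly 50 mm3, and the blood vessels of all lungs were first flushed with PBS. 4T1 and 67NR are sister lines from one BALB/c mammary tumour, of which the labels call the first metastatic and the second not. Each class of tumour is thus represented by a single line, and the labels give neither the age of the mice nor a batch. The labels number the lungs but do not tie each to a separate mouse. P-values therefore reflect only how these samples scatter, which may be technical.

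Myeloid cells that accumulate in tumour-bearing hosts are known to suppress T cells by several routes. Arginase 1 and inducible nitric oxide synthase both consume arginine, and indoleamine 2,3-dioxygenase consumes tryptophan. CD39 and CD73, encoded by Entpd1 and Nt5e, act in sequence to turn extracellular ATP into adenosine, which dampens T cells through its receptors. TGF-beta 1 and interleukin 10 are suppressive cytokines, and PD-L1 and PD-L2, encoded by Cd274 and Pdcd1lg2, are the ligands of the PD-1 receptor. None of these genes is restricted to myeloid cells, and in whole lung fewer cells of a type and less RNA per cell cannot be told apart.

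All arrays were lung by their markers. The surfactant gene Sftpc lay between 6203 and 9203 intensity units on all 14 arrays and the club cell gene Scgb1a1 between 11382 and 15783. Array medians lay between 113.2 and 116.1, and lower quartiles between 32.0 and 33.4. Intensities of different probe sets are not comparable as levels of RNA, so each probe set is set only against itself in the other groups.

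The upstream sequences of the members on which the results below turn are shown for reference. These are Nt5e, the member with a called difference, and Cd274. Cd274 was the member whose correlation with a marker list across arrays passed the threshold, by Pearson's measure only. RefSeq, on build GRCm38.p6, gave promoter entries for 5 of the 9 members. Each sequence is the 250 bases before the gene's annotated start, so it lies outside the exons. Capitals mark matches, on either strand and with overlaps counted, to the GC box GGGCGG or to the interferon regulatory factor element GAAANNGAA. The Nt5e window is chr9:88327359-88327608 and the Cd274 window chr19:29367188-29367437, both on the plus strand.
Nt5e: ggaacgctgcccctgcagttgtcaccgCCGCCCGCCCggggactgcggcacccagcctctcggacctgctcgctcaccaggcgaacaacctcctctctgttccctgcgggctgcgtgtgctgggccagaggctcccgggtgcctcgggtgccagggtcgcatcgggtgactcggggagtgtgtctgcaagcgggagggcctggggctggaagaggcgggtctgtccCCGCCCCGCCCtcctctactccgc
Cd274: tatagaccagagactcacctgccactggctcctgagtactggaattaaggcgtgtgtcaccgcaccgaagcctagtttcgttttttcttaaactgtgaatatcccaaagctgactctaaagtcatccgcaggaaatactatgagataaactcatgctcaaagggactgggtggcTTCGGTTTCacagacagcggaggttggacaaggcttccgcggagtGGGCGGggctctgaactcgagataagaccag
The Nt5e window held 4 GC boxes, as overlapping pairs read on the minus strand, and 0 interferon regulatory factor elements. The Cd274 window held 1 of each. Of 32851 RefSeq promoter windows of this length, 32.7% held a GC box and 7.13% the interferon regulatory factor element. The TATA box TATAAA was found in 12.4% of windows, the STAT site TTCNNNGAA in 7.02% and the hypoxia element core ACGTG in 16.6%, and neither printed window held any of the 3. These matches describe letters in a window and were not tested against the expression values.

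Of the 9 genes, Nt5e alone had a probe set past the threshold, in 1 comparison. In 4T1 against normal lung 0 of 14 member probe sets passed an adjusted p of 0.05 (limma, Benjamini-Hochberg over 45037 probe sets), beside 0.16% of all probe sets. In 67NR against normal lung the count was again 0 of 14, beside 0.00222%. In 4T1 against 67NR lung 1 of 14 passed, an Nt5e probe set that was higher in 4T1 lung, beside 0.171%. At an unadjusted p under 0.05 the members numbered 1, 2 and 3 in the same order, while 2446, 2804 and 3610 of all probe sets did so. The median member log2 change was -0.05, -0.02 and -0.02, beside medians over 18193 genes that lay between -0.0023 and -0.0011. A log2 change is taken on log2(intensity + 16), which understates the change of dim probe sets. On that scale the 95% intervals of all 14 probe sets stayed within 1 log2 unit either way in each comparison, with the widest bound at 0.82. For the dim probe sets this does not limit the change of intensity itself to 2-fold. The first 2 comparisons share the normal arrays and each pair of comparisons shares a group.

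**Figure D1:**
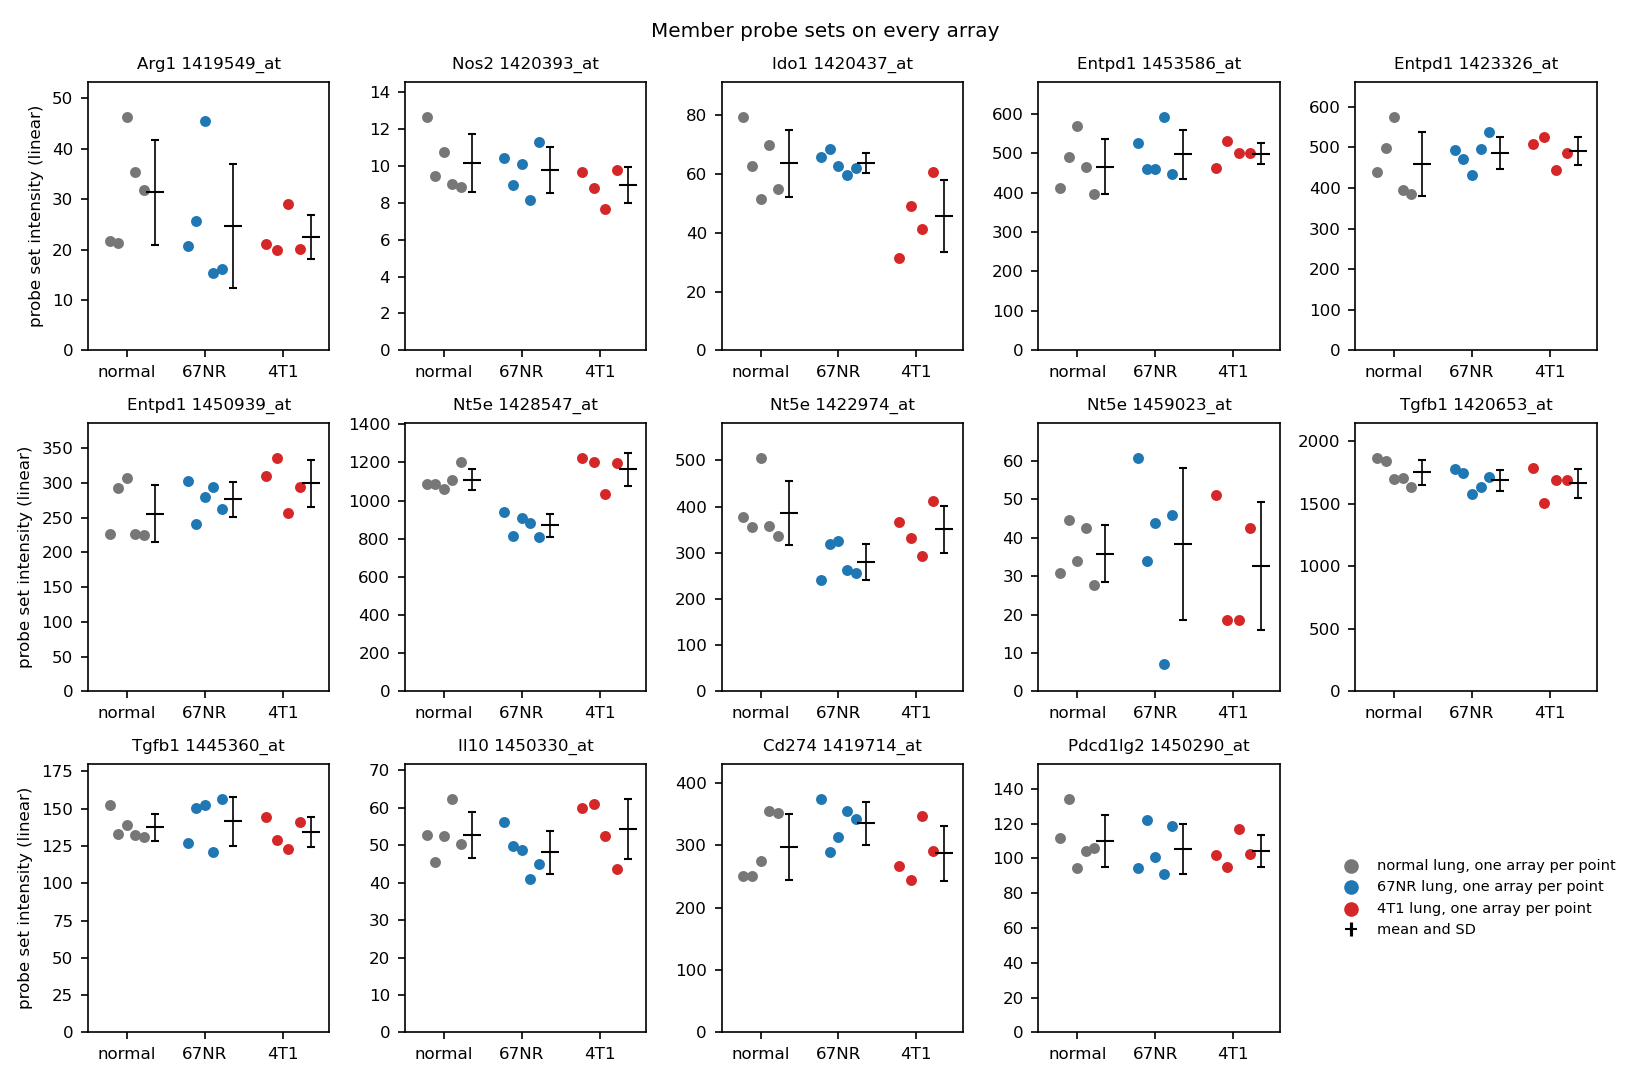
Intensity (linear scale from 0) of each of the 14 member probe sets on each array, by group, with 1 point per array and the group mean and SD as a bar; only the brightest and second Nt5e probe sets have groups that do not overlap, with 67NR lungs lowest on average.

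Arg1, the arginase of suppressive and alternatively activated myeloid cells, was dim in every lung. Its probe set read 21.2, 19.9, 29.1 and 20.0 in the 4 4T1 lungs. In 67NR lungs it read 20.6, 25.7, 45.6, 15.4 and 16.1, and in normal lungs 21.7, 21.3, 46.4, 35.4 and 31.8. The groups overlapped, and on 11 of 14 arrays the value lay below that array's lower quartile. Arg1 in 4T1 against normal lung showed a difference of -0.28 on the log2 scale (SE 0.20, 95% interval -0.71 to 0.16, limma adjusted p = 0.971). The corresponding values were -0.24 (SE 0.19) for 67NR against normal and -0.04 (SE 0.20) for 4T1 against 67NR lung, neither past the threshold.

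Nos2, the inducible nitric oxide synthase, read near the bottom of every array. Its single probe set ranged from 7.66 to 12.7 over the 14 arrays and lay below the lower quartile of its own array on all 14. Normal lungs averaged 10.1 ± 1.59 (SD, n = 5), 67NR lungs 9.78 ± 1.24 (SD, n = 5) and 4T1 lungs 8.97 ± 0.985 (SD, n = 4). Without detection calls, such a reading cannot be told from background, and a difference in Nos2 was not detectable at this signal.

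Among the 14 other genes of arginine and nitric oxide metabolism, all of them measured, 0 passed in any comparison, beside 0.225% of 18193 genes in 4T1 against normal, 0.0055% in 67NR against normal and 0.236% in 4T1 against 67NR lung. Genes are counted here by their brightest probe set. The gene with the smallest p was Arg2, the mitochondrial arginase. Its brightest probe set read 489, 554, 522 and 458 in 4T1 lungs. In 67NR lungs it read 279, 237, 317, 317 and 251, and in normal lungs 235, 321, 441, 229.9 and 314. Every 4T1 lung thus lay above every 67NR and every normal lung. The log2 change of Arg2 was 0.82 (SE 0.16, limma adjusted p = 0.0901) against 67NR and 0.72 (SE 0.16, limma adjusted p = 0.234) against normal lung, neither past the threshold. A second Arg2 probe set also did not overlap, with log2 changes of 0.89 (SE 0.24, limma adjusted p = 0.286) and 0.88 (SE 0.24, limma adjusted p = 0.496). Groups that did not overlap made up 2.83% of all probe sets in 4T1 against 67NR and 2.32% in 4T1 against normal lung. Without normal replicate 3, whose Arg2 was the highest among normal lungs, the adjusted p was 0.0218 and 0.0233. Against 67NR lung Arg2 also passed among the upper 60% of probe sets (0.0411), with 1 probe set per gene in the upper 60% (0.0218) and in a fit of 2 groups only (0.0351). Over 27 settings the adjusted p reached 0.227 against 67NR and 0.508 against normal lung. Arg2 was high in 4T1 lungs, whose neutrophil marker sums, given below, were also high. Among the 4T1 lungs, replicate 2 had the highest Arg2 by the brightest probe set and the lowest sum (24409). Replicate 4 had the lowest Arg2 by that probe set and the highest sum (34429). The second Arg2 probe set had another order, with replicate 3 highest (294) and replicate 1 lowest (193). The part of neutrophils in the Arg2 difference was not tested. Oat, which makes pyrroline carboxylate from ornithine, showed a log2 difference of -0.15 (SE 0.05, limma adjusted p = 0.353) in 4T1 against 67NR lung.

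Ido1, which opens the breakdown of tryptophan to kynurenine, read lower in 4T1 lungs without passing the test. The 4 4T1 lungs read 31.5, 49.2, 41.1 and 60.5. The 67NR lungs read 65.8, 68.5, 62.5, 59.7 and 62.0, and the normal lungs 79.4, 62.6, 51.3, 69.9 and 54.7. All but 1 of the 4T1 lungs lay below every lung of the other groups, and replicate 4 fell among them. The log2 change was -0.38 (SE 0.13, 95% interval -0.66 to -0.10, limma adjusted p = 0.731) against normal and -0.39 (SE 0.13, limma adjusted p = 0.415) against 67NR lung. Between 67NR and normal lung it was 0.01 (SE 0.12). Of the 12 further tryptophan and kynurenine genes, all measured, 0 passed in any comparison. Those with the smallest p were Ahr, the receptor that senses kynurenine, at -0.31 (SE 0.17) in 4T1 against 67NR lung, and Wars, which charges tryptophan onto its tRNA, at 0.14 (SE 0.08) in 67NR against normal lung.

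**Figure D2:**
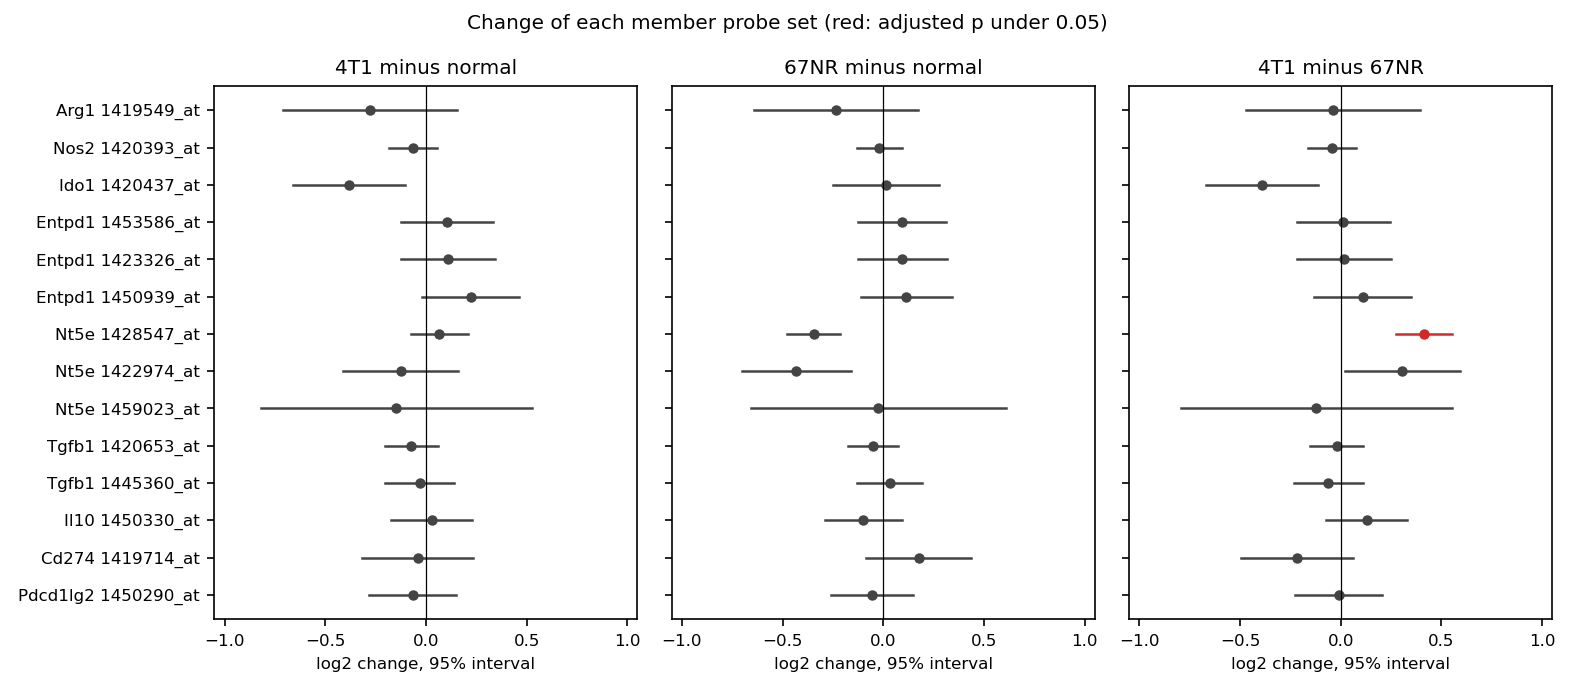
Log2 change (point) and 95% interval (line) of the 14 member probe sets in the 3 comparisons, from the limma fit over all arrays; red marks the 1 probe set past an adjusted p of 0.05, the brightest of Nt5e in 4T1 minus 67NR.

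Nt5e carried the only called difference. Its brightest probe set read 1226, 1199.9, 1036 and 1195 in 4T1 lungs. In normal lungs it read 1086, 1085, 1062, 1109.8 and 1204. The 67NR lungs read 941, 813, 906, 882 and 808, so that every one of them lay below all 4T1 and all normal lungs. 4T1 and normal lungs overlapped. The 4T1 mean was 1164 ± 86.2 (SD, n = 4), the normal mean 1109 ± 55.7 (SD, n = 5) and the 67NR mean 870.0 ± 58.3 (SD, n = 5). Against 67NR lung, Nt5e in 4T1 lung was 1.33-fold higher, a log2 change of 0.41 (SE 0.06, 95% interval 0.27 to 0.55, limma adjusted p = 0.0249). Groups that did not overlap made up 2.83% of all probe sets in that comparison and 1 of 14 members.

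From normal to 67NR lung the same probe set had a log2 change of -0.35 (SE 0.06, 95% interval -0.48 to -0.21), with an unadjusted p of 8.6e-05 and a limma adjusted p of 0.429. Adjusted values in that comparison are high throughout, with 1 call over the whole array. From normal to 4T1 lung the log2 difference of Nt5e was 0.07 (SE 0.06, 95% interval -0.07 to 0.21). The order of the levels was thus 4T1, normal and 67NR lung, with the first 2 not separated beyond their spread.

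A second Nt5e probe set, next in mean level, had the same lowest group. It read 241, 320.1, 326, 262 and 256 in 67NR lungs and 376, 355, 506, 357 and 335 in normal lungs, which did not overlap. In 4T1 lungs it read 367, 331, 294 and 413, overlapping both. Its log2 change was -0.43 (SE 0.12, limma adjusted p = 0.603) in 67NR against normal and 0.31 (SE 0.13, limma adjusted p = 0.592) in 4T1 against 67NR lung. Members with no overlap between 67NR and normal lung were these 2 Nt5e probe sets of 14, beside 1.13% of all probe sets, and none had it between 4T1 and normal lung, beside 2.32%. The dimmest Nt5e probe set ranged from 7.23 to 60.8 and overlapped in all comparisons. Its correlation with the brightest over the 14 arrays was 0.03, while that of the second with the brightest was 0.59.

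The Nt5e call did not survive every setting. It was lost without 4T1 replicate 1 (adjusted p = 0.102), 2 (0.0706) or 4 (0.102) and without 67NR replicate 2 (0.0723), 4 (0.06) or 5 (0.0544), while the log2 change stayed between 0.39 and 0.47; when the 3 Nt5e probe sets were averaged it was 0.20 (limma adjusted p = 0.683). Over 27 settings the adjusted p ran from 0.00521 to 0.683.

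Neutrophil markers separated the same groups differently. Their summed intensity over 12 measured genes was 24409 to 34429 in 4T1, 5918 to 9514 in 67NR and 4381 to 7914 in normal lung. In 4T1 lung 8 of the 12 rose against normal and 9 of 12 against 67NR lung, S100a9 by 2.48 and 2.22 on the log2 scale. In 67NR against normal lung 0 of 12 passed, with a median log2 change of 0.05. None of these 12 genes read 0 on all 14 arrays. Endothelial markers, from cells in which CD73 is abundant, had 0 of 12 past the threshold in any comparison, with a median log2 change of 0.09 in 67NR against normal and -0.09 in 4T1 against 67NR lung. Across the 14 arrays Nt5e and the mean of the endothelial markers had a Pearson r of -0.53 (permutation p = 0.0539, adjusted p = 0.485 over 81 relations of members with marker lists) and a Spearman rho of -0.43 (permutation p = 0.126, adjusted p = 0.602). Within groups r was -0.06, and without 4T1 replicate 3 and normal replicate 5, the arrays farthest from the marker median, it was -0.54. The part of neutrophils in the Nt5e difference was not tested.

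**Figure D3:**
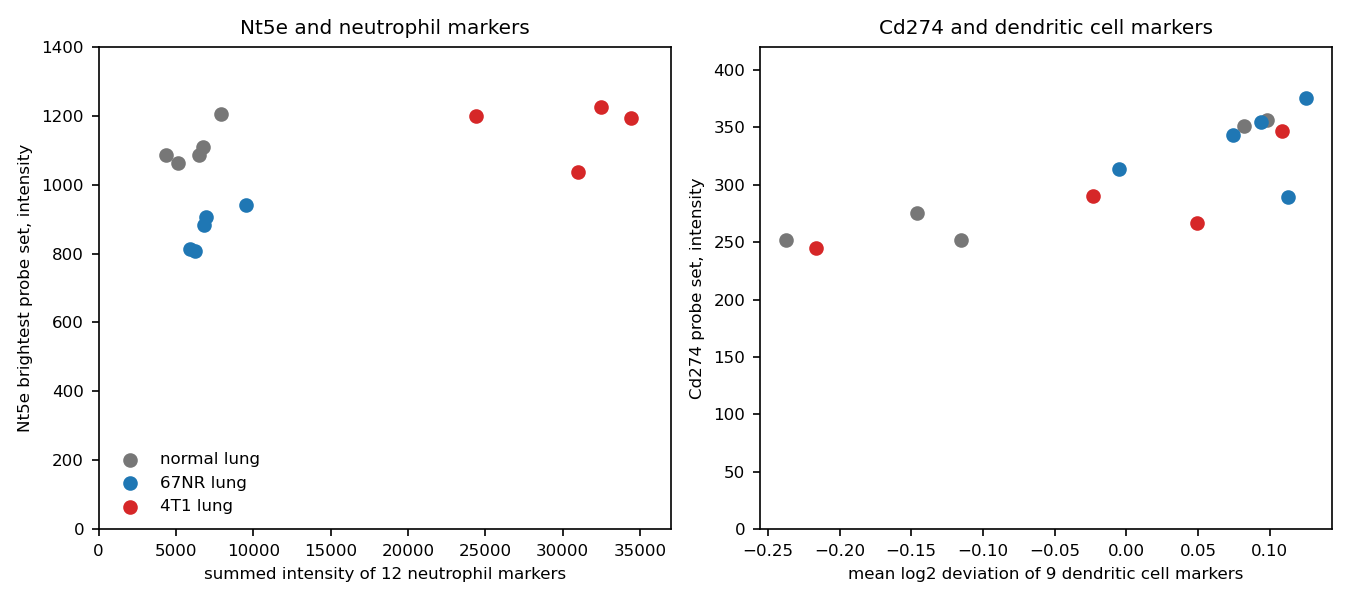
Left, intensity of the brightest Nt5e probe set against the summed intensity of 12 neutrophil markers; right, Cd274 intensity against the mean log2 deviation of 9 dendritic cell markers from their means over all arrays; 1 point per array, coloured by group. On the left the neutrophil sums reach 9514 in 67NR and 7914 in normal lungs and start at 24409 in 4T1 lungs, and 67NR lungs lie lowest in Nt5e; on the right the groups intermix along 1 rising band.

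Entpd1, which acts before Nt5e in making adenosine, showed no difference past the threshold in any of its 3 probe sets. The brightest read 463, 531, 501 and 499.6 in 4T1, 525, 461, 459, 592 and 447 in 67NR, and 411, 489.8, 568, 464 and 396 in normal lung. The groups overlapped, and the 4T1 against normal log2 change was 0.10 (SE 0.11, 95% interval -0.13 to 0.34). The largest of the Entpd1 changes was 0.22 (SE 0.11, limma adjusted p = 0.947), for the dimmest probe set in 4T1 against normal lung. The 3 probe sets correlated with each other at 0.63 to 0.77, and 2 of them are annotated to the same source record.

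Of 18 further purinergic genes 13 were measured and 0 passed in any comparison. Entpd5, an intracellular relative of Entpd1, showed a log2 difference of -0.16 (SE 0.05, limma adjusted p = 0.644) in 67NR against normal lung. Dpp4, which binds adenosine deaminase at the cell surface, had -0.10 (SE 0.04, limma adjusted p = 0.529) in 4T1 against 67NR lung. Adenosine receptor genes Adora1, Adora2a and Adora2b were not analysed here.

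Tgfb1, which encodes the suppressive cytokine TGF-beta 1, showed no difference past the threshold. Its brighter probe set read 1779, 1502, 1684 and 1684 in 4T1, 1772, 1745, 1572, 1629.9 and 1711 in 67NR, and 1867, 1839.7, 1698, 1705 and 1630.1 in normal lung. The log2 change was -0.07 (SE 0.06, 95% interval -0.20 to 0.06) for 4T1 against normal, -0.05 (SE 0.06) for 67NR against normal and -0.02 (SE 0.06) for 4T1 against 67NR lung. The dimmer Tgfb1 probe set ranged from 121 to 157 and had log2 changes between -0.06 and 0.03.

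Around it, 22 of 24 TGF-beta pathway genes were measured. In 4T1 against 67NR lung 1 rose and 0 fell, and in both comparisons with normal lung 0 passed. The one that rose was Tgfbi, a secreted matrix protein induced by TGF-beta. Its brightest probe set read 3163, 2569.7, 3584 and 2853 in 4T1 lungs and between 1916 and 2136 in 67NR lungs. Normal lungs read between 2108 and 2367, again below every 4T1 lung. The log2 change was 0.55 (SE 0.08, limma adjusted p = 0.0154) against 67NR and 0.43 (SE 0.08, limma adjusted p = 0.0768) against normal lung. The dimmest of its 4 probe sets passed against normal lung as well (log2 change 0.46, SE 0.08, limma adjusted p = 0.0400). Without 4T1 replicate 1 or 67NR replicate 2 the call against 67NR lung was lost (adjusted p = 0.0703 and 0.055), as it was with 2 groups only (0.138) and without 67NR replicates 1 and 3 (0.0849). Against normal lung the brightest probe set passed without 4T1 replicate 2 (0.0113) and under 4 other settings (0.02 to 0.0426). Over 27 settings the adjusted p ran from 0.00294 to 0.138 against 67NR and from 0.0113 to 0.321 against normal lung. Both Tgfbi and the neutrophil marker sums given above were higher in every 4T1 lung than in all other lungs. Among the 4T1 lungs, replicate 2 had the lowest sum (24409) and the lowest Tgfbi (2569.7). Replicate 4 had the highest sum (34429), while its Tgfbi of 2853 lay below replicates 1 and 3. The part of neutrophils in the Tgfbi change was not tested.

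Il10 was dim, between 40.8 and 62.4 on all arrays. Normal lungs averaged 52.7 ± 6.15 (SD, n = 5), 67NR lungs 48.1 ± 5.77 (SD, n = 5) and 4T1 lungs 54.3 ± 8.06 (SD, n = 4). The widest difference, 4T1 against 67NR, was 0.13 (SE 0.09, limma adjusted p = 0.795). Among 14 listed genes of the interleukin 10 pathway 13 were measured and 0 passed. Sbno2, a STAT3-induced corepressor, showed a log2 difference of 0.40 (SE 0.13, limma adjusted p = 0.692) in 4T1 against normal lung and Il4ra, the interleukin 4 receptor chain, 0.24 (SE 0.08, limma adjusted p = 0.708) in 67NR against normal lung.

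Cd274 (PD-L1) showed no difference past the threshold between the groups. Its probe set read 267, 245, 347 and 290.4 in 4T1, 375, 289.6, 314, 355 and 343 in 67NR, and 252, 252, 275, 356 and 351 in normal lung. All groups overlapped. The log2 change was 0.18 (SE 0.12, limma adjusted p = 0.879) in 67NR against normal, -0.04 (SE 0.13) in 4T1 against normal and -0.22 (SE 0.13, 95% interval -0.49 to 0.06) in 4T1 against 67NR lung. Pdcd1lg2 (PD-L2) read between 91.0 and 134 on all arrays, with log2 changes between -0.07 and -0.01.

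The level of Cd274 was correlated with dendritic cell markers across the 14 arrays by 1 of 2 measures. Pearson's r with the mean of 9 dendritic markers was 0.83 (permutation p = 0.00021, adjusted p = 0.0170 over 81 relations of 9 members with 9 marker lists, 100000 permutations). Spearman's rho was 0.80 (permutation p = 0.00101, adjusted p = 0.0587), which missed the threshold. Within groups r was 0.81, and without the arrays farthest from the marker median, normal replicate 2 and 4T1 replicate 2, it was 0.75. Single dendritic markers had r between -0.08 (Siglech) and 0.54 (Flt3) with Cd274. The neutrophil list and the basophil and mast cell list, on which the arrays fall into separate groups, were not among the 81. Of the 81 relations 1 passed by Pearson's and 0 by Spearman's measure. The adjusted p rose above 0.05 without 4T1 replicate 2 (0.0599) or 3 (0.0543), 67NR replicate 1 (0.0729) or 5 (0.0567), or normal replicate 4 (0.0502), and ran from 0.00486 to 0.167 over 20 settings. The relation was picked from the 81 by its size. Cd274 also had r of 0.57 with monocyte and interstitial macrophage markers and -0.60 with alveolar epithelium markers, neither past the threshold. Within groups these were 0.74 and -0.67, and r with alveolar macrophage markers was 0.62. Whether the relation is particular to dendritic cell markers was not tested.

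Of 20 other checkpoint ligands and receptors 18 were measured, and 0 passed in any comparison. Lgals9, which encodes galectin-9, a ligand of TIM-3, had the smallest p, at a log2 difference of -0.18 (SE 0.04, limma adjusted p = 0.207) in 4T1 against 67NR lung. Its 4T1 values, 3383 to 3611, lay below all 67NR values, 3835 to 4271. Normal lungs read 3479 to 3716, overlapping 4T1 lungs and below all 67NR lungs. The Lgals9 log2 difference was 0.13 (SE 0.04, limma adjusted p = 0.655) in 67NR against normal and -0.05 (SE 0.04) in 4T1 against normal lung. Groups that did not overlap made up 2.83% of all probe sets in 4T1 against 67NR and 1.13% in 67NR against normal lung. Pvr, a ligand of TIGIT, had -0.22 (SE 0.10, limma adjusted p = 0.792) in 67NR against normal lung.

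Interferon gamma induces Ido1 and the PD-1 ligands, and 14 of 15 listed genes of its response were measured. None passed. Cxcl10 showed a log2 difference of -0.55 (SE 0.22, limma adjusted p = 0.547) in 4T1 against 67NR lung, and Socs1, a feedback inhibitor, -0.29 (SE 0.11, limma adjusted p = 0.806) in 4T1 against normal lung. All 14 listed genes of alternative macrophage activation, the state in which Arg1 is high, were measured and 0 passed. Retnla had -0.53 (SE 0.20, limma adjusted p = 0.713) in 67NR against normal and Mgl2 -0.19 (SE 0.07, limma adjusted p = 0.796) in 4T1 against normal lung. Over all 8 lists, 120 of 131 genes were measured, of which 8 had an unadjusted p under 0.05 in 4T1 against normal lung (6.67%, beside 5.52% of all 18193 genes). In 67NR against normal lung they numbered 10 (8.33%, beside 6.78%), and in 4T1 against 67NR lung 16 (13.3%, beside 8.95%).

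**Figure D4:**
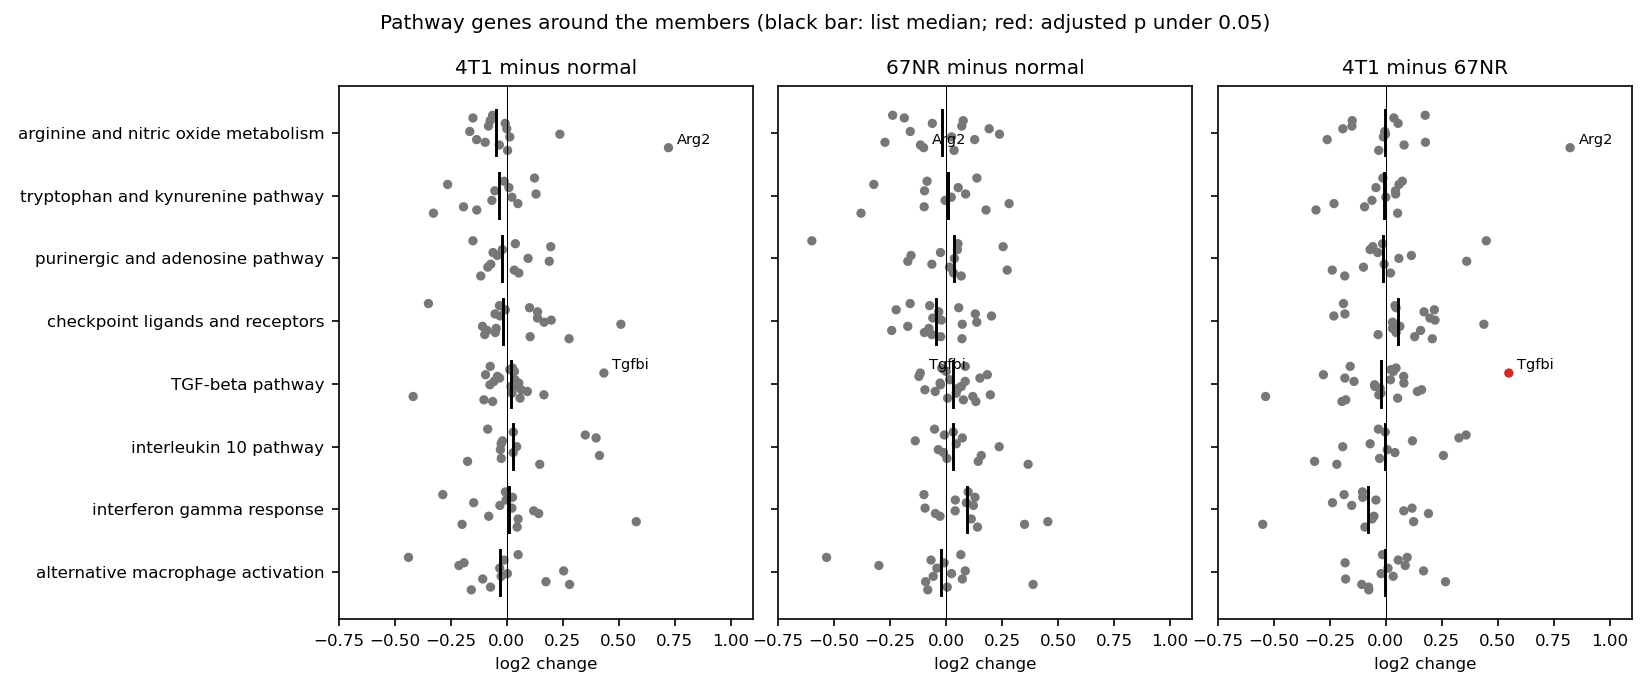
Log2 change of each measured gene of the 8 pathway lists (points) with the list median (black bar) in the 3 comparisons. Red marks the 1 gene past an adjusted p of 0.05, Tgfbi in 4T1 minus 67NR. The list medians run from -0.077 to 0.094.

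Over the 14 arrays the pairwise Pearson correlations of the 9 genes ran from -0.49 (Entpd1 with Pdcd1lg2) to 0.52 (Tgfb1 with Pdcd1lg2), as a description of arrays that share a platform. Among 10915 other genes of the upper 60% by level, the pattern of Nt5e was most like that of Tshb (r = 0.90) and Tbc1d2b (0.88), and that of Cd274 most like Rragd (0.93) and Ttc30b (0.92). For Tgfb1 they were Camkk2 (0.90) and Nphp4 (0.87), for Entpd1 Rnf103 (0.85) and Rps6kc1 (0.84), and for Pdcd1lg2, St6galnac5 (0.90) and Ap5z1 (0.88). The dim members gave Abca2 (0.85) and Fem1b (0.83) for Ido1, Osgep (0.85) and Eif3e (0.84) for Il10, Psmf1 (0.83) and Arntl (0.79) for Nos2, and Ghr (0.77) and 0610009L18Rik (0.75) for Arg1. Each of these was picked as the highest of that many correlations over 14 arrays and is given as a description only.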

How the data were processed

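Lung RNA was measured on 14 Affymetrix mouse arrays. The deposited table holds linear probe set intensities; their summarisation, background correction and normalisation by the authors are not given in the sources used here. Names came from the platform annotation, and 34945 probe sets carried 1 symbol, 932 several and 9160 none. Entrez identifiers of 34741 matched the RefSeq table (GRCm38.p6). After 64 control probe sets were removed, log2(intensity + 16) of 45037 probe sets was fitted with limma 3.58.1 in R 4.3.3, with 1 mean per group, all 14 arrays, 11 residual degrees of freedom and default eBayes. Two-sided p-values were Benjamini-Hochberg adjusted over all 45037, with a threshold of 0.05 and no filter on level. The steps were tested on simulated data. List genes were represented by their brightest probe set with 1 symbol. Named were all members, list genes past the threshold (up to 4 per list and comparison), otherwise the 2 of smallest p, and the 2 genes most like each member. Alternatives covered normalisation, offset, filters, variance models, weights, the fitted groups, replicate number as a block and each array left out. The members and lists were chosen with earlier results of these data known. The number of arrays limits the precision.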

Additional observations from a re-analysis of the deposited data

Results flagged for a closer look

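In 42 groups of 4 or 5 arrays (the 14 member probe sets in each group), 3 held an array far from its group; chance alone gives about 1 in 20. Arg1 read 29.1 in 4T1 replicate 3, against 19.9 to 21.2 in the other 4T1 lungs. The brightest Nt5e probe set read 1036 in the same lung, against 1195 to 1226 in the others. The second Nt5e probe set read 506 in normal replicate 3, against 335 to 376 in the other normal lungs.

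The change of the brightest Nt5e probe set from normal lung differed between the tumours by 0.41 on the log2 scale, which is the 4T1 against 67NR difference itself, since both changes share the normal arrays.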

How the results depend on the processing

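The member calls were recomputed under 27 settings, 14 of which left out 1 array. Of 702 member values 693 kept their call, 9 lost it, all for the brightest Nt5e probe set in 4T1 against 67NR lung, and none reversed. In 4T1 against normal and 67NR against normal lung 0 member probe sets were called under all 27. In 4T1 against 67NR lung the count of 1 became 0 with probe sets averaged per gene, with a fit of 2 groups only and with the replicate block, and ranged from 0 to 1 with 1 array left out. The Nt5e log2 change was 0.41 with 2 groups only (limma adjusted p = 0.152) and 0.41 with the replicate block (0.161); over all settings it ran from 0.20 to 0.47. Deviations of same-numbered arrays from their group means had correlations from -0.21 to 0.14, over 0.1 in 2 of 13 pairs. These correlations were not set against a reference, so they do not settle whether the numbers pair the samples.

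Of pathway genes, the 0 called in 4T1 against normal lung became 1 with the upper 60% of probe sets, with 1 probe set per gene in the upper 60%, with the mean of probe sets and with trended variance, and 0 to 1 with 1 array left out. The 1 called in 4T1 against 67NR lung became 2 with either upper 60% filter, 0 with the replicate block and 0 without 67NR replicates 1 and 3, and 0 to 2 with 1 array left out. The Tgfbi call in that comparison was lost with 2 groups only (adjusted p = 0.138), where Arg2 passed instead (0.0351), and with the replicate block (0.0877). The Tgfbi pass against normal lung came with the upper 60% of probe sets (0.0426), 1 probe set per gene in the upper 60% (0.02), probe sets averaged (0.021) and trended variance (0.04).

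Over all probe sets, the 72 called in 4T1 against normal lung became 45 with 1 probe set per gene in the upper 60% and 35 with 2 groups only. The 77 in 4T1 against 67NR lung became 32 with 2 groups only and 32 with the replicate block, and 43 to 75 with 1 array left out. The 1 in 67NR against normal lung became 0 with an offset of 64, either upper 60% filter, 2 groups only or the replicate block, 5 without 67NR replicates 1 and 3, and 0 to 3 with 1 array left out. Filters test fewer features and the fit of 2 groups has fewer arrays; other causes were not tested.

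The relation of Cd274 with dendritic cell markers, whose alternatives were chosen after seeing the data, kept r between 0.78 and 0.89 over 20 settings. Its adjusted p missed the threshold with the mean of probe sets (r 0.78, adjusted p = 0.0672) and without 67NR replicates 1 and 3 (r 0.82, adjusted p = 0.167), and r ran from 0.79 to 0.89 with 1 array left out. Arg1, Nos2, Ido1, Il10 and the dimmest Nt5e probe set lay below the 40th percentile of mean level, so their changes are the least certain.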

Other observations

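In none of the 3 comparisons did a marker of monocytes and interstitial macrophages (11 measured), alveolar macrophages (10), dendritic cells (9), T cells (9), B cells (7), fibroblasts (10), alveolar epithelium (10) or airway epithelium (6) pass the threshold. Itgam and Fcgr4, both also present on neutrophils, had log2 changes of 0.83 (SE 0.17, limma adjusted p = 0.152) and 0.41 (SE 0.09, limma adjusted p = 0.158) in 4T1 against normal lung. Among the other markers, Krt5, of airway basal cells, had 1.06 (SE 0.45, limma adjusted p = 0.588) in 4T1 against 67NR lung, Fabp4 0.87 (SE 0.44, limma adjusted p = 0.664) in the same comparison, and Flt3 0.66 (SE 0.36, limma adjusted p = 0.839) in 67NR against normal lung; Krt5 is named by the rule, and Fabp4 and Flt3 were chosen after their values were seen. Of 7 basophil and mast cell genes 1 rose, the basophil protease Mcpt8, by 2.27 in 4T1 and by 1.68 in 67NR against normal lung (limma adjusted p = 0.000126 and 0.0220), and 0 passed between 4T1 and 67NR lung.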
